A study of Mus musculus with 32 samples.

Results

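The 793 fragment pairs described here join a captured fragment at 1 of 11 genes to a DpnII fragment on a different chromosome, in small-intestinal organoids of aged mice. They were chosen from 2 deposited Capture-C tables, which list 30435 pairs of a captured fragment (the bait) and another fragment. The Esrrb and Lifr baits lie inside their genes, 58157 bp and 38316 bp from the annotated 5′ end. The others lie within 725 bp of that end of their gene. All pairs of the 11 baits outside Ciita whose partner lies on another chromosome and is not itself a bait were taken, and those with 10 or more reads summed over both tables were kept. That left 793 of 19187 such pairs, on 790 distinct partner fragments. The selection therefore rests on read counts, and the total of a pair is given below as a description only.

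Capture-C crosslinks chromatin, cuts it with a restriction enzyme, ligates the ends that crosslinking holds together and pulls out, with probes, the products that carry a chosen bait. DpnII cuts at GATC. Chromosomes occupy separate territories in the nucleus, so ligation between chromosomes is rarer for any one pair of fragments than ligation along a chromosome, and it includes joins between fragments that did not touch in the nucleus. The baited genes are mostly regulators of pluripotent stem cells. Nanog, Sox2, Klf2, Klf4, Esrrb, Sall4 and Tfcp2l1 encode transcription factors of that network, and Dppa5a encodes an RNA-binding protein of early embryonic cells. Lifr encodes the receptor for leukaemia inhibitory factor, Stat3 encodes the transcription factor that signals downstream of it and of other cytokines, and Phc1 encodes a subunit of polycomb repressive complex 1.

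The organoids were grown from the small intestine of 2 aged C57BL/6JRj mice, O76 at passages 2 and 3 and O77 at passages 4 and 5. At 3 days after splitting they received interferon gamma (IFNγ) at 500 pg/ml in growth medium or medium alone, for 3 hours. Each condition had 4 libraries, sequenced on 4 lanes, which gives 32 samples. Every mouse and passage is represented in both conditions, and no young mice were included. File names and sample descriptions disagree on which table holds which condition, so each table is called only by the name it carries, control-named or IFNγ-named. Differences are given as IFNγ-named minus control-named, and every sign turns if the tables are exchanged. The 4 count columns of a table carry numbers only and were taken as its 4 libraries. Each library was also sequenced on 4 lanes, so whether a column is a library or a lane could not be checked. The 4 libraries came from 2 mice, and the columns do not name the mice. The p-values therefore measure the spread between libraries, which is partly technical. The libraries held 23037 to 37290 reads each, of which 13.7% to 16.4% fell in the 793 pairs. DNA contacts carry no expression values, so cell type markers could not be read.

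Partner fragments are given on build mm10 (GRCm38), with the plus strand of the genome printed 5′ to 3′ and each GATC in capitals. The first 2 below are whole partners, with the next GATC, of the most evenly covered pairs, whose reads were spread over all libraries. The other 2 are whole partners of pairs in which 1 library held most reads, so that the shape of the fragments can be compared with the counts given further on.
Klf2 partner in Dach2, chrX:113831838-113831978: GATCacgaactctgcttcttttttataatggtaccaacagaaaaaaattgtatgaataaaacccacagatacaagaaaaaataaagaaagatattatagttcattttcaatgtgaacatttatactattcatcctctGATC
Sox2 partner in Ube2o, chr11:116579428-116579658: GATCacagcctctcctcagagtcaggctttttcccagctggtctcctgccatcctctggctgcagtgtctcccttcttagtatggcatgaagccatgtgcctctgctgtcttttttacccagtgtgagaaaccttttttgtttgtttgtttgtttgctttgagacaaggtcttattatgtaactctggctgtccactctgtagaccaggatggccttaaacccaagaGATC
Klf2 partner in Chd7, chr4:8800005-8800117: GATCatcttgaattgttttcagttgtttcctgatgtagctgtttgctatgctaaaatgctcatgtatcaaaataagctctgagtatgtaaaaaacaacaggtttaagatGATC
Phc1 partner in Birc6, chr17:74590391-74590650: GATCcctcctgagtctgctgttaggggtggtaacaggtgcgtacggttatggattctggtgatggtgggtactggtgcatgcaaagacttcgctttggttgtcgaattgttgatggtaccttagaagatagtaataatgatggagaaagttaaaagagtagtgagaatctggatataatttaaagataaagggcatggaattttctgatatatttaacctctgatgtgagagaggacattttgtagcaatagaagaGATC

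Every bait had such pairs, and their number ran from 39 for Nanog to 96 for Stat3. Esrrb had 95, Klf2 had 93, Phc1 had 83, Lifr had 78 and Sall4 had 76. Dppa5a had 73, Klf4 had 61, Tfcp2l1 had 53 and Sox2 had 46. The baits also differed in depth: Esrrb had 29637 reads in all, and Tfcp2l1, with the fewest, had 9049. Pairs per bait and depth did not run in the same order, since Stat3 reached its 96 pairs with 13503 reads and Nanog its 39 with 11271. The Stat3 pairs held 76.4% of the reads of that bait on other chromosomes, the Esrrb pairs held 72.8% and the Nanog pairs 36.0%.

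Most listed contacts between chromosomes were single reads. Of the 19187 pairs, 17394 (90.7%) had 1 read, 1000 had 2 to 9 reads and 793 had 10 or more. The 793 pairs held 34799 of the 54910 reads, or 63.4%. Their median was 34 reads, with quartiles of 21 and 56 and a highest value of 210. Near the threshold the numbers were small, with 13 pairs at 9 reads and 16 pairs at 10, so the choice of 10 divides few pairs. The same selection on the 3 Ciita baits gave 231 pairs with a median of 74 reads and 72.0% of the reads on other chromosomes.

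The reads of most pairs were unevenly spread over the libraries. The library with the most reads held 47.0% of a pair's reads on average, while single libraries held 9.96% to 16.1% of all reads. More than 50% of the reads came from 1 library in 328 pairs (41.4%), and in 158 pairs (19.9%) no library held 25% or more. The values gathered around 2 levels, near 20% and near 50%. The uneven pairs were not confined to thinly read ones: among the 334 pairs with 40 or more reads, 1 library held over 50% in 41.0%. Although 694 pairs (87.5%) had reads in all 8 libraries, 101 pairs had exactly 1 read in each of 7 libraries and all the others in the remaining one, which held 3 to 85 reads with a median of 20. This shape made up 12.7% of the 793 pairs, 7.79% of the corresponding Ciita pairs and 10.2% of same-chromosome pairs over all baits. With at most 2 reads in each of 7 libraries and 10 or more in 1, the shares were 21.3%, 20.3% and 20.0%. Unevenness was not particular to the 793. Over 50% came from 1 library in 42.0% of the Ciita pairs. On the same chromosome, over all baits, the share was 43.9% beyond 1 Mb, 41.7% from 10 kb to 1 Mb and 34.2% within 10 kb.

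**Figure D1:**
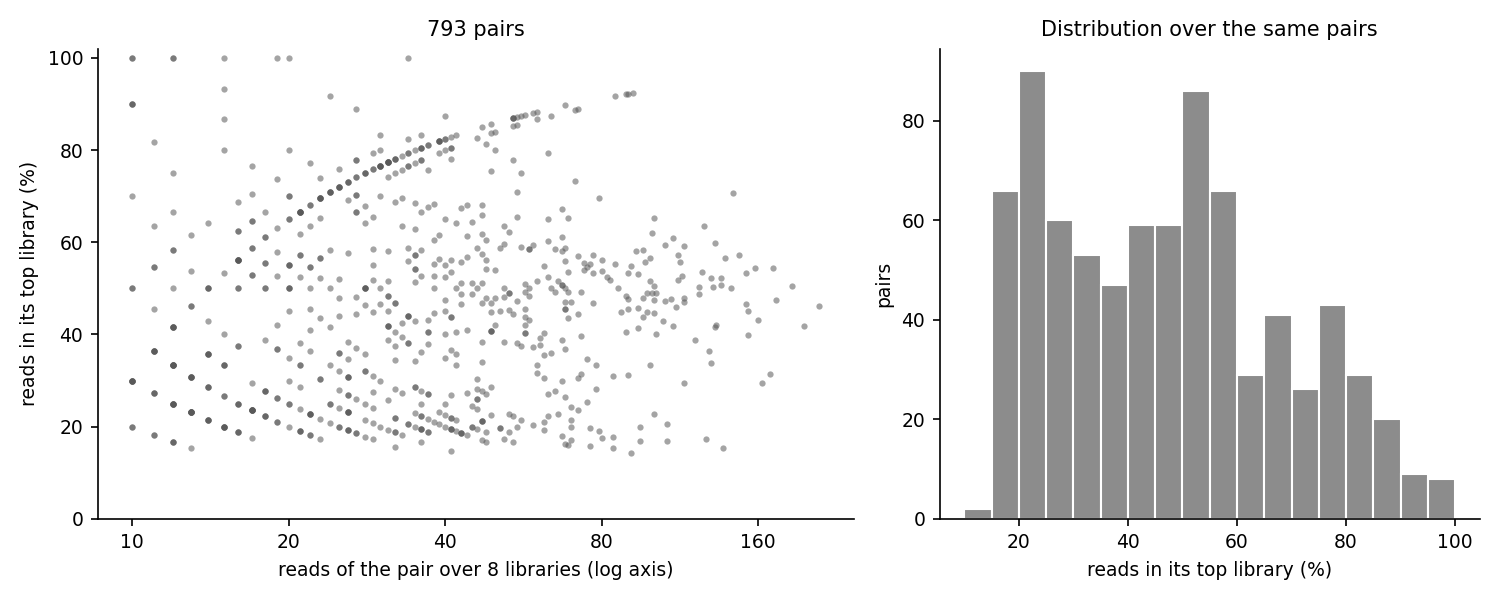
Share of a pair's reads in its top library against its total reads over 8 libraries (log axis) for the 793 pairs, and the distribution of that share. The dense curve that rises with the total holds the pairs with exactly 1 read in each of 7 libraries, a few pairs lie above it, and 158 pairs lie under 25%.

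No library supplied all uneven pairs. The library that held over 50% of the reads was control-named library 3 in 59 pairs, control-named library 2 in 55 and control-named library 1 in 54. It was IFNγ-named library 1 in 23, the lowest number, and that library was also the shallowest. In 79 uneven pairs the top library held 40 or more reads, and the other libraries then had a median of 4.86 reads each. In the 131 uneven pairs with 20 to 39 reads in the top library they had 1.29, and in the 118 with 5 to 19 they had 1. The part of library preparation or sequencing in these shapes was not tested.

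The pair with the most reads of all joined Esrrb to chr19:25910334-25910680, outside genes. Its control-named libraries had 19, 18, 97 and 13 reads and its IFNγ-named libraries 12, 10, 16 and 25. The tables overlapped with or without the library of 97 reads. Klf2's leading partner lay in an intron of Chd7, a chromatin remodeller, on chromosome 4, and is printed above. It had 81, 12, 10 and 9 reads in the control-named and 12, 5, 12 and 11 in the IFNγ-named libraries, so that 1 library again stood apart. Sox2 was joined to chr11:24764830-24765997, outside genes, with 9, 11, 84 and 8 reads against 6, 8, 11 and 10.

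Stat3 met an intron of Zfp292, a zinc finger gene, at chr4:34869153-34869849. Here the high library was in the IFNγ-named table: 12, 9, 12 and 15 reads against 55, 12, 9 and 8. For Sall4 the most-read partner was chr13:43920875-43921055, outside genes, with 11, 68, 10 and 5 reads against 5, 9, 11 and 11. Phc1 met an intron of Sorcs1, a sorting receptor gene, at chr19:50318081-50318425, with 14, 13, 8 and 12 reads against 9, 47, 11 and 15. In each of these pairs the remaining 7 libraries overlapped between the tables.

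Klf4's leading partner, chr14:21741867-21742364, lay within 1 kb of start sites of Dusp13, a phosphatase gene, and Gm15935, and had 10, 11, 47 and 10 reads against 8, 11, 9 and 15. Lifr was joined to a start site of Lclat1, a lipid acyltransferase gene, at chr17:73202824-73203460, with 7, 7, 10 and 51 reads against 2, 10, 6 and 8. Both pairs had 1 high library in the control-named table. Nanog's partner at chr14:81920117-81920666, outside genes, had 9, 13, 9 and 63 reads against 5, 3, 7 and 4. Its counts did not overlap between the tables even without the library of 63 reads, though once scaled to depth the 4 libraries of each table did, and its log2 difference was -2.27 (SE 0.839, edgeR adjusted p = 0.284). Tfcp2l1 was joined to an intron of Ankrd31 at chr13:96768244-96769309, with 4, 7, 11 and 36 reads against 5, 8, 11 and 7. Dppa5a met an intron of Cux2, a homeobox gene, at chr5:121932864-121932986, and had 8, 9, 8 and 9 reads against 7, 28, 8 and 13. Its top library held 31.1% of the reads, the lowest share among the most-read pairs of the 11 baits.

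The evenly covered pairs were read at similar counts in every library. Among pairs with 40 or more reads, the lowest top-library share, 14.3%, belonged to Stat3 with an exon of Plxnb2, a plexin gene, at chr15:89167210-89168240. It had 13, 12, 13 and 12 reads in the control-named and 9, 13, 8 and 11 in the IFNγ-named libraries. Klf2 and its partner in Dach2, a gene of a nuclear cofactor on the X chromosome, were the most deeply read of these, with 17, 16, 18 and 21 against 20, 14, 15 and 16. This partner is the fragment of 137 bp printed above. Stat3 with chr16:50891067-50891500, outside genes, had 13, 12, 6 and 8 against 13, 8, 12 and 12. Sox2 with an intron of Ube2o, a ubiquitin-conjugating enzyme gene, had 12, 11, 10 and 4 against 11, 7, 12 and 9. Klf2 with an intron of 8030442B05Rik at chr2:11389767-11390235 had 6, 5, 6 and 6 against 4, 4, 4 and 6. The tables overlapped in all 5 pairs.

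**Figure D2:**
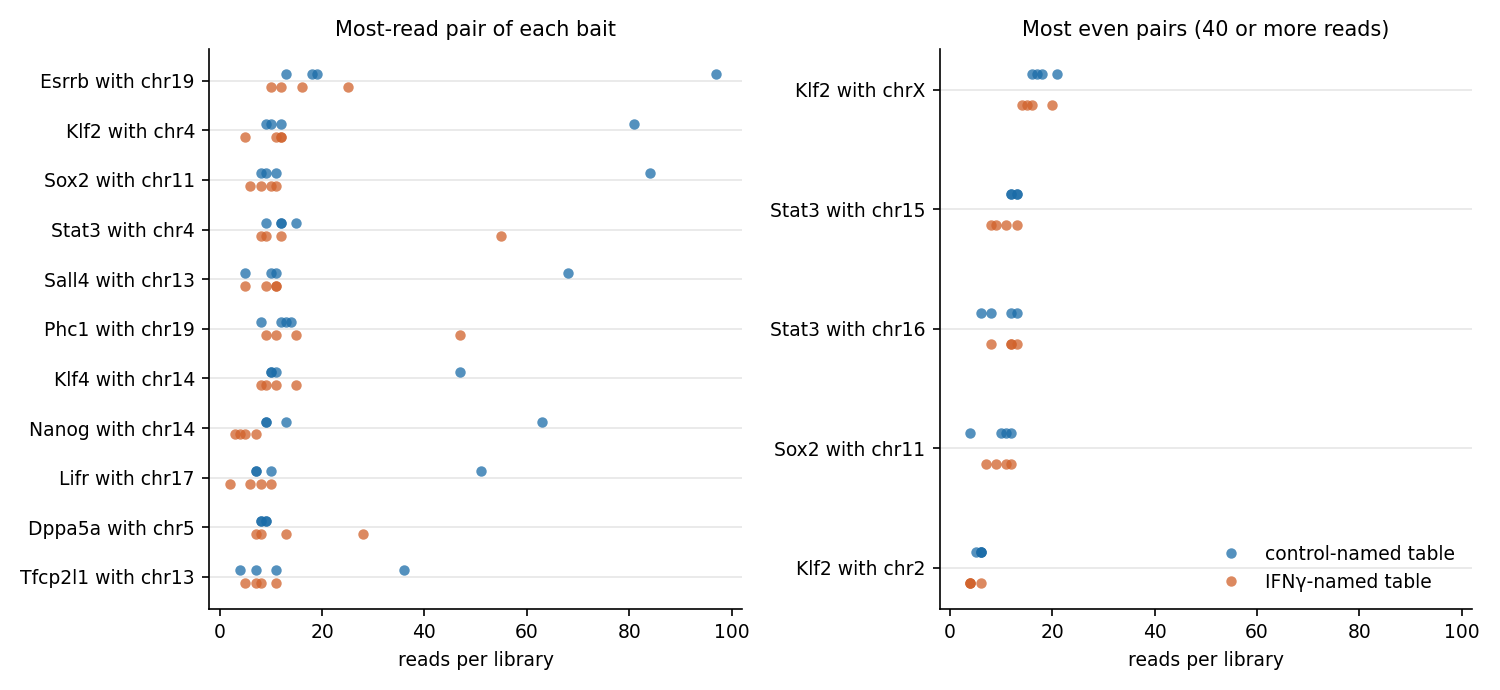
Reads per library of the most-read pair of each of the 11 baits (left) and of the 5 most even pairs with 40 or more reads (right), 1 point per library. On the left 1 point stands to the right of the others in each row, from 28 reads for Dppa5a to 97 for Esrrb, and on the right all points lie between 4 and 21 reads.

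The partners were spread over all chromosomes but Y. Stat3, Esrrb, Klf2, Phc1, Dppa5a, Klf4 and Tfcp2l1 each met 19 chromosomes, and Nanog met 15. To read the numbers against chromosome size, the expected number was taken from the DpnII fragments over 100 bp on each chromosome, leaving out the chromosome of the bait. Chromosome 11 held 59 pairs against 33.1 expected, or 1.78 times, from 10 baits. Chromosome 19 held 30 against 18.2, or 1.65 times, and chromosome 15 held 37 against 28.4, or 1.30 times. Chromosome 1 held 44 against 56.1, or 0.784 times. The X chromosome held 17 pairs against 53.6, or 0.317 times, and the Y chromosome held 0 against 29.98.

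The departures on chromosomes 11, 19 and X were not seen in the full list of pairs, which is mostly single reads. There chromosome 11 held 1.11 times, chromosome 19 1.00 times and the X chromosome 1.06 times the expected pairs. The Y chromosome was low in that list as well, at 0.262 times. Chromosome 16, which carries the Ciita baits, was the highest there, at 1.29 times. Over the 19 autosomes, the ratio for the 793 pairs went with the density of protein-coding genes at a Pearson r of 0.49 and a Spearman rho of 0.37. For all listed pairs the coefficients were -0.05 and 0.21. These describe 19 chromosomes that share baits and libraries.

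**Figure D3:**
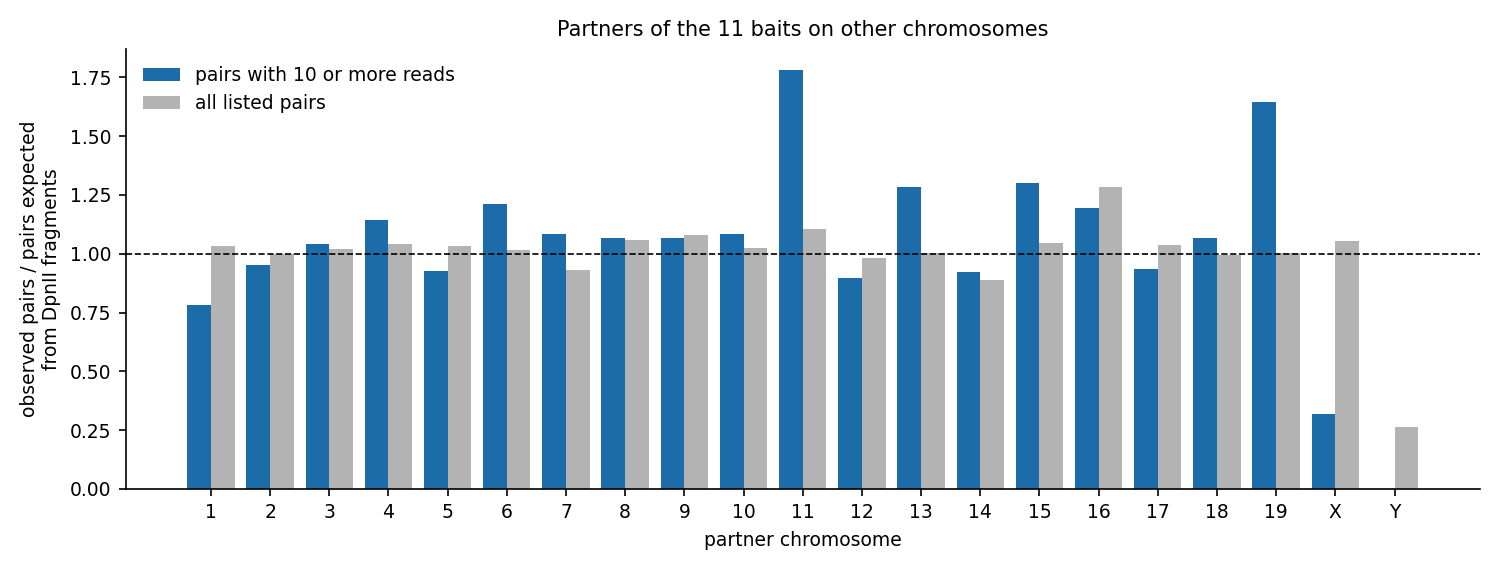
Observed over expected partner fragments of the 11 baits by chromosome, for pairs with 10 or more reads and for all listed pairs. The dashed line marks equality with the number expected from DpnII fragments, and the bars for 10 or more reads reach 1.78 on chromosome 11 and 0.317 on the X chromosome.

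Single chromosomes took like shares of the reads in both tables. Chromosome 11 took 6.31% ± 1.19 of the 11 baits' reads on other chromosomes in control-named libraries and 6.06% ± 0.942 in IFNγ-named ones (SD, n = 4 each). Chromosome 4 took 6.09% ± 0.804 and 7.29% ± 0.944, and the X chromosome 4.11% ± 0.200 and 3.66% ± 0.584. Reads were also summed by bait and partner chromosome and compared by edgeR's quasi-likelihood test. Of 292 sums with 10 or more reads, 218 belonged to the 11 baits and other chromosomes. The background was 0%, since 0 of the 292 sums passed an adjusted p of 0.05, and 8 of the 218 had an unadjusted p under 0.05 where 4.45% of all sums did. DESeq2 also called 0 of the 218.

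The smallest edgeR adjusted p among the sums, 0.149, belonged to Sall4 and the Y chromosome. It had 39 reads in IFNγ-named library 1, 1 read in IFNγ-named library 2 and 0 in the other 6 libraries. These 40 reads lay on 31 different fragments with at most 3 reads each, and a median of 100% of the bases of these fragments was masked as repeats. The sum passed without IFNγ-named library 3 (adjusted p = 0.0114) or 4 (0.0337), and without the filter on the total (5.998e-05), by the same test. Phc1 with chromosome 18 followed, with 20, 69, 46 and 8 reads against 12, 7, 10 and 11 (adjusted p = 0.757). Esrrb with chromosome 4 had 67, 81, 49 and 35 against 29, 130, 67 and 216, at the same adjusted p, and 1 library alone held 216 of these reads.

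In gene content, the partners lay in genes more often than single-read partners did. Each fragment was put in the first class that applied: within 1 kb of an annotated transcription start site (TSS), exon, intron or outside genes. Of the 793 fragments, 86 (10.8%) lay at a TSS, 69 (8.70%) in an exon, 309 (38.97%) in an intron and 329 (41.5%) outside genes. The partners of single-read pairs were at 6.80%, 4.96%, 34.2% and 54.0%, and all DpnII fragments over 100 bp of the genome at 7.27%, 5.74%, 34.0% and 53.0%. The pairs in which 1 library held over 50% had 9.45% at a TSS and 43.0% outside genes, and those in which no library held 25% had 12.7% and 39.2%. Longer fragments reach a gene more often, and the median length was 466 bp for the 793, 512 bp for single-read partners and 370 bp for the genome.

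Repeats were scarcer in the partners than in single-read partners. On average 28.1% of a partner's bases were masked as repeats, against 52.6% in single-read partners and 39.5% over the fragments of the genome. The Ciita pairs selected in the same way had 27.9%. GC content was 43.2%, 41.6% and 41.9% in the same order for the 793, the single-read partners and the genome. Since the 793 were chosen by read count and not by sequence, these are properties the selection did not use, though both alignment and counting can depend on repeats.

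**Figure D4:**
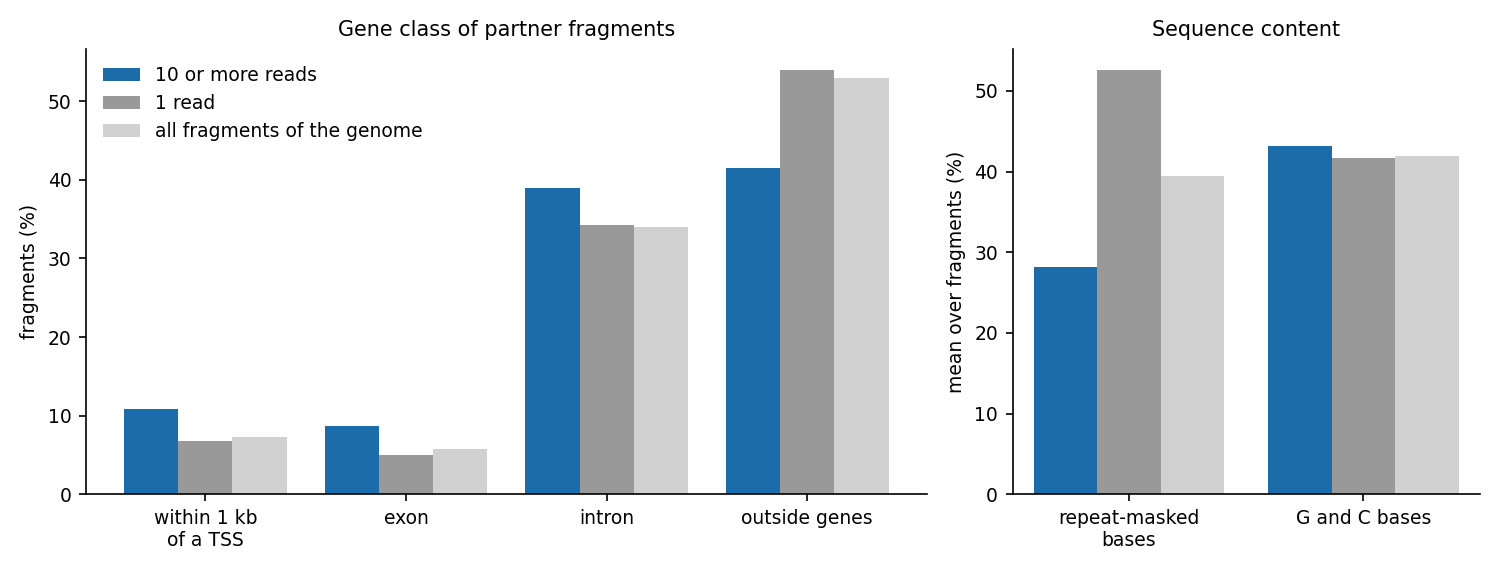
Left, share of partner fragments in each gene class for the 793 pairs, for single-read pairs of the same baits and for all DpnII fragments over 100 bp. Right, mean share of repeat-masked and of G and C bases, where the repeat-masked share is 28.1%, 52.6% and 39.5%.

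The 793 fragments overlapped 483 genes, 397 of them protein-coding, and came within 1 kb of the TSS at 95 genes. The distance to the nearest annotated TSS had a median of 11.3 kb, and 40 fragments were over 100 kb away. Only 17 genes were overlapped by more than 1 pair, each by 2 pairs on different fragments. Long genes hold more fragments and so are overlapped more often, and the median length of the 17 was 435 kb. It was 91.5 kb for the protein-coding genes overlapped by a pair and 17.4 kb for all protein-coding genes. Lclat1 was one of the 17, met by Lifr and by Sox2. Others were Lrp1b, a large receptor gene (Dppa5a and Sox2), Gphn, which encodes the synaptic scaffold gephyrin (Phc1 and Stat3), Dpyd, which encodes a pyrimidine-degrading enzyme (Klf2 and Stat3), and Cps1, a urea cycle enzyme gene (Dppa5a and Klf2).

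A few partners at a TSS with many reads were named after their values were seen. Esrrb and Slc25a11, a mitochondrial carrier gene on chromosome 11, had 18, 13, 10 and 6 against 11, 10, 44 and 18. Klf2 and Ift122, a ciliary transport gene on chromosome 6, had 11, 9, 60 and 3 against 8, 8, 4 and 11. Klf2 and Plxnb1, a plexin gene on chromosome 9, had 16, 10, 8 and 6 against 6, 8, 41 and 7. In each of them 1 library stood above the rest, in either table.

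The gene lists were reached only at genes that carry a bait themselves. Of 30 genes of the pluripotency network, 2 were reached at a TSS, Klf2 and Tfcp2l1, and of 25 polycomb genes 1 was reached, Phc1. None of the 20 genes of LIF and STAT3 signalling, the 23 of interferon signalling and MHC class II, the 15 of intestinal stem cells and the 29 of differentiated intestinal epithelium had a partner among the 793 within 1 kb of a TSS or overlapping the gene. Esrrb, the only other list gene overlapped, is baited as well. The 793 pairs came within 1 kb of the TSS at only 95 genes of the whole annotation. Lists of 15 to 30 genes can miss so small a set without being avoided. No background share was computed, so whether the lists were reached less often than other genes was not tested. Ciita, the activator of MHC class II genes, was not on these lists, and 1 Lifr pair lay 417 bp from its TSS, next to the bait Ciita_1.

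These partners were the fragments that directly adjoin another bait. The sequences below show the GATC shared by the bait and the neighbouring fragment, with 60 bases on either side, for the 4 fragments next to baits at Klf2, Tfcp2l1, Phc1 and Esrrb.
Sox2 partner next to the Klf2 bait, chr8:72319281-72319404: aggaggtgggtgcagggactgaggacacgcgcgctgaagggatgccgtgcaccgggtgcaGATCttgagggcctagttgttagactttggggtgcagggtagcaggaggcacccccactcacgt
Phc1 partner next to the Tfcp2l1 bait, chr1:118628068-118628191: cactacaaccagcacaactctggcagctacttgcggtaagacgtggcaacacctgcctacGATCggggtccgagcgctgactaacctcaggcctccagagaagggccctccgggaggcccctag
Esrrb partner next to the Phc1 bait, chr6:122339208-122339331: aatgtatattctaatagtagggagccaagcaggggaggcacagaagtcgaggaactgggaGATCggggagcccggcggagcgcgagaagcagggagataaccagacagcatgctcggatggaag
Phc1 partner next to the Esrrb bait, chr12:86422854-86422977: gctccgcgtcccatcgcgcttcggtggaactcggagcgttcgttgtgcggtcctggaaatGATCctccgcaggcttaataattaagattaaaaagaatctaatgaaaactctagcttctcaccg

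Reads in these pairs were few and spread over libraries. Sox2 with the fragment next to the Klf2 bait (chr8:72319341-72320266) had 2, 2, 2 and 1 reads in the control-named and 0, 2, 3 and 1 in the IFNγ-named libraries. Phc1 with the fragment next to the Tfcp2l1 bait (chr1:118627474-118628127) had 0, 4, 2 and 4 against 2, 0, 1 and 2. Esrrb with the fragment next to the Phc1 bait (chr6:122337519-122339267) had 2, 3, 1 and 2 against 1, 1, 0 and 3. Phc1 with the fragment next to the Esrrb bait (chr12:86422914-86423803) had 4, 3, 3 and 0 against 0, 1, 1 and 0, and Lifr with the fragment next to the bait Ciita_1 (chr16:10480581-10480814) had 3, 1, 2 and 0 against 3, 0, 0 and 1. No library held over 33.3% of the reads in any of the 5. The bait fragments themselves, left out by the selection, had 13 reads with Sox2 at Klf2, 4 with Phc1 at Tfcp2l1 and 7 with Lifr at Ciita_1. The Esrrb and Phc1 baits had 18 with each other, 1 pair of fragments with the same count from either bait.

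The surroundings of other baits were met often in the full list too. Windows of 10 kb on either side of the 14 baits cover 0.00966% of the genome and held 213 (1.11%) of the listed pairs of the 11 baits with other chromosomes. Of these 213 pairs, 88 (41.3%) had 2 or more reads, against 9.36% of all listed pairs, and 5 reached 10 reads. The windows around the Ciita baits held 56 of the 213. Fragments that adjoin a bait can be enriched with it during capture, and the part of the capture in these pairs was not tested.

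Different baits seldom met the same fragment. Of the 790 partner fragments 1 was joined to more than 1 bait, chr11:54168033-54169151, a fragment of 1119 bp outside genes and 9107 bp from the nearest TSS, which Esrrb, Phc1, Klf2 and Dppa5a each met. Its first 120 bases and its last 120, up to the next GATC, are printed because 4 baits share it.
Start, chr11:54168033-54168152: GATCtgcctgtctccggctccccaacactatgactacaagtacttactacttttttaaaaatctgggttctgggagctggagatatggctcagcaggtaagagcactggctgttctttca
End, chr11:54169036-54169155: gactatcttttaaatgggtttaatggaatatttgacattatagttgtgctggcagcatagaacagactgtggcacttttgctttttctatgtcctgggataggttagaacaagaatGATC

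The 4 baits met it in different libraries. Klf2 had 19, 0, 1 and 4 reads against 0, 2, 1 and 0, and Phc1 had 1, 9, 0 and 0 against 0, 0, 0 and 0. Dppa5a had 14 reads in IFNγ-named library 3, 1 read in IFNγ-named library 2 and 0 in the others. Esrrb alone was even, with 1, 1, 3 and 2 against 3, 1, 2 and 2. Masked repeats made up 49.8% of the fragment.

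Sequence shared by a partner and its own bait was short in nearly all pairs. The longest run of identical bases, on either strand, had a median of 10 bases and a highest value of 39. The longest run with any other bait, where more sequence is searched, had a median of 12 and a highest value of 55. With their own bait 6 of the 793 pairs had a run of 20 or more, all with the Klf2 bait. The runs were simple repeats within that bait, all of whose bases there are masked, and are printed to show what the 6 partners share with it.
Klf2 bait, chr8:72318494-72318532: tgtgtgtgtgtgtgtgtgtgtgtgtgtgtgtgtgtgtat
Klf2 bait, chr8:72318420-72318451: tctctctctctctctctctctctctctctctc

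Partners of the first run, whole or in part, were the fragment on chromosome 11 above, a fragment on chromosome 1 with 19 reads and one on chromosome 19 with 33. The second run was shared by fragments on chromosomes 2, 12 and 15 with 136, 49 and 18 reads. The fragment on chromosome 2 had 17, 11, 13 and 8 reads against 7, 69, 7 and 4, so that 1 library again held most. These 6 pairs are a small part of the 93 of the Klf2 bait.

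Neighbouring partners of the same bait were counted in windows. No pair had another of the 793 from the same bait within 10 kb, and 18 (2.27%) had any listed pair of the same bait that close. Within 100 kb, 12 pairs (1.51%) had another of the 793 and 130 (16.4%) any listed pair of the same bait. Within 1 Mb these were 56 (7.06%) and 601 (75.8%). The corresponding Ciita pairs had a listed pair of the same bait within 10 kb in 6 cases (2.60%).

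The main comparison asked which pairs differed between the tables. By edgeR's quasi-likelihood test over all 3673 pairs of the series with 10 or more reads, 0 of the 793 pairs passed an adjusted p of 0.05, against a background of 0%. The smallest adjusted p was 0.284. By the unadjusted p, 117 of the 793 pairs (14.8%) lay under 0.05, 55 higher and 62 lower in the IFNγ-named table, against a background of 16.6%. Of these 117, 103 had over 50% of their reads in 1 library, and among the 158 even pairs 1 lay under 0.05. The libraries of the tables, scaled to their depth, did not overlap in 18 pairs (2.27%), against 2.21% of all pairs tested. The median log2 difference was -0.05 for the 793 and -0.09 for all pairs. DESeq2 called 0 of the 793, with 65 under an unadjusted p of 0.05. No DESeq2 share over all pairs tested is given, so the 65 cannot be set against a background.

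Each of the 5 pairs with the lowest unadjusted edgeR p had 1 library above the rest. Stat3 with chr8:34043795-34044171, outside genes, had 9, 5, 2 and 45 reads in the control-named and 1, 2, 2 and 3 in the IFNγ-named libraries. Its log2 difference was -2.91 (SE 1.01, edgeR adjusted p = 0.284), and it moved to -1.13 without control-named library 4. Esrrb with an intron of Castor2 at chr5:134120288-134120754 had 85 reads in IFNγ-named library 2 and 1 read in each of the other 7. Its log2 difference was 4.30 (SE 1.51, edgeR adjusted p = 0.284). This is the highest count in the shape with exactly 1 read in 7 libraries.

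Phc1 with an intron of Birc6, an inhibitor of apoptosis gene, printed above, had 1, 1, 1 and 1 reads against 1, 2, 1 and 52. Its log2 difference was 3.65 (SE 1.31, edgeR adjusted p = 0.284). Sall4 with chr7:111276139-111276757, outside genes, had 2, 3, 3 and 3 reads against 34, 6, 6 and 5, so the tables did not overlap. Its log2 difference was 2.41 (SE 0.853, edgeR adjusted p = 0.284), and 1.09 without IFNγ-named library 1. Klf2 with an intron of Hsd17b12, a fatty acid elongation enzyme gene, at chr2:94051403-94052031 had 2, 7, 1 and 1 reads against 0, 1, 0 and 0, and a log2 difference of -2.80 (SE 0.988, edgeR adjusted p = 0.284). Once scaled to library depth its tables did not overlap either. None of the 5 passed this test after adjustment. Without the filter on the total, the same test gave adjusted p-values of 0.00544 for Esrrb with Castor2 and 0.0312 for Phc1 with Birc6, the pairs in which 1 library held 85 and 52 reads and the others 1 or 2. The other 3 did not pass there either, with 0.158 to 0.348.

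The authors' contact score, computed on the libraries of a table together, reached 5 in 397 of the 793 pairs (50.1%) for the control-named table, and in 317 (39.97%) for the other. Over all 3673 pairs with 10 or more reads these were 36% and 31.8%. Scores of 5 or more were reached in both tables by 203 of the 793, in at least 1 by 511 and in neither by 282. Score and selection rest on the same reads, so the counts describe the pairs and support nothing about them. A score can follow 1 library: Esrrb with Castor2 had a control-named score of 0 and an IFNγ-named score of 125. Stat3 with Plxnb2, evenly read, scored 38.8 and 33.8.

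The share of each bait's reads that fell on other chromosomes was compared between tables by two-sided exact permutation tests, which cannot go under 0.0286 with 4 against 4 libraries. Dppa5a had the highest share, 52.5% ± 10.7 in control-named libraries and 44.8% ± 3.27 in IFNγ-named ones (SD, n = 4 each). Stat3 followed with 43.3% ± 2.85 and 41.8% ± 3.36, and Klf2 with 40.1% ± 4.56 and 37.0% ± 1.77. Phc1 had 35.1% ± 6.59 and 35.4% ± 7.09, Lifr 36.2% ± 5.60 and 34.1% ± 4.47, and Tfcp2l1 33.1% ± 6.21 and 32.1% ± 6.95. The next baits overlapped with these within their spread: Nanog had 33.4% ± 10.9 and 29.4% ± 2.70, Klf4 32.9% ± 8.88 and 29.1% ± 3.61, and Esrrb 29.6% ± 2.42 and 32.7% ± 5.53. Sall4 had 29.7% ± 6.68 and 32.1% ± 7.67, and Sox2 was lowest in the control-named table with 27.01% ± 3.55 and 31.1% ± 2.61.

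None of the 11 baits differed between the tables beyond the spread of the libraries. The exact permutation p-values ran from 0.114 for Sox2 to 1 for Phc1, and the Benjamini-Hochberg adjusted values over 14 baits from 0.733 to 1. With a smallest possible p of 0.0286, 1 bait alone could not pass 0.05 after adjustment over 14 baits, even with libraries that do not overlap. The adjusted values therefore cannot decide whether a single bait differed. The largest difference, -7.65 percentage points at Dppa5a, rested on libraries that overlapped: 52.7%, 55.7%, 63.6% and 37.9% against 43.4%, 40.9%, 47.6% and 47.5%. Without control-named library 3 it was -3.95 points and without control-named library 4 -12.5, and with pairs of 10 or more reads alone -1.68, where Sox2 (5.46) and Esrrb (5.39) differed more. At Klf4 and Lifr the direction turned without control-named library 3, which had the highest share for both.

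**Figure D5:**
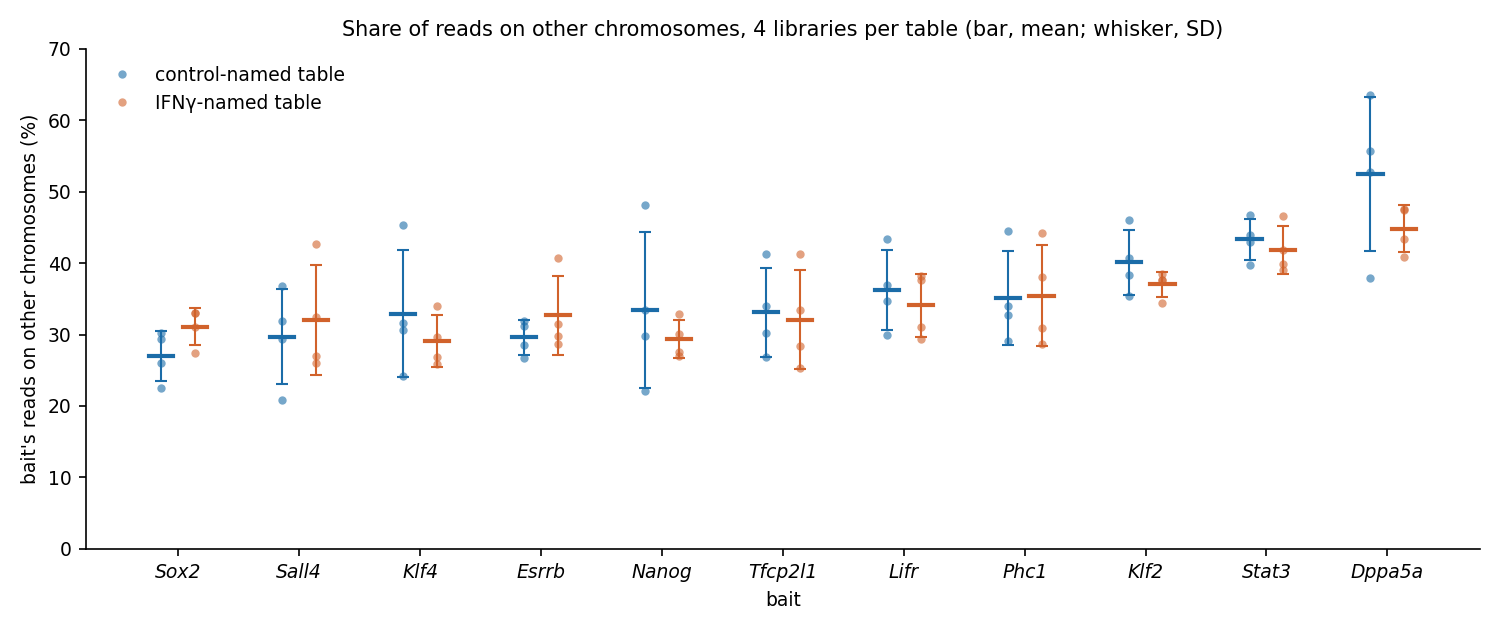
Share of each bait's reads on other chromosomes in the 4 libraries of each table, with mean (bar) and SD (whisker), baits ordered by their mean over all libraries. Dppa5a is highest, with means of 52.5% and 44.8%, and the libraries of the tables overlap for every bait.

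Against the Ciita baits, the 11 baits together had a slightly lower share on other chromosomes. Over the 8 libraries they had 34.8% ± 1.70 and the Ciita baits 37.5% ± 4.09, a difference of -2.65 percentage points (SD 3.13), lower in 7 of 8 libraries. A two-sided exact permutation test that exchanged the 2 values within libraries gave p = 0.0547, where 0.00781 is the smallest possible. This p measures the spread between libraries and not that between baits, whose shares differed as given above. Without control-named library 2 the difference was -3.30 (exact permutation p = 0.0156), and leaving out any other library gave exact permutation p-values of 0.0625 to 0.109. With pairs between baits included it was -1.91 (exact permutation p = 0.117).

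Gene classes took like shares of the reads in both tables, over all listed pairs of the 11 baits with other chromosomes. Fragments at a TSS took 10.2% ± 1.00 of these reads in control-named libraries and 9.74% ± 0.806 in IFNγ-named ones (SD, n = 4 each). Exons took 7.97% ± 1.01 and 7.45% ± 0.816, introns 35.9% ± 0.831 and 38.4% ± 2.16, and fragments outside genes 46.0% ± 1.88 and 44.4% ± 2.74. The exact permutation p-values were 0.6, 0.486, 0.114 and 0.371, and after adjustment over the 4 classes 0.457 or more. Here too 1 class alone could not have passed 0.05 after adjustment, since the smallest possible p is 0.0286. For introns 3 of the 4 IFNγ-named libraries, at 38.5% to 40.5%, lay above every control-named library, and the other one, at 35.4%, lay among them.

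Compared with the Ciita baits over the 8 libraries, the 11 baits had fewer reads at a TSS, 9.95% ± 0.871 against 13.2% ± 2.90, and more in exons, 7.71% ± 0.895 against 5.53% ± 1.68. The TSS share was lower in 6 of 8 and the exon share higher in 7 of 8 libraries. The exact permutation p-values were 0.0469 and 0.0156, and neither passed after adjustment over the 4 classes (0.0938 and 0.0625). Here too the p-values measure the spread between libraries and not that between baits. With a TSS window of 5 kb the exon difference was 1.7 points with an adjusted exact permutation p of 0.0313. Introns and fragments outside genes differed by -1.46 and 2.49 points (exact permutation p = 0.203 and 0.219).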

How the data were processed

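Capture-C reads of 32 samples (8 libraries on 4 lanes) were deposited as 2 tables, 1 row per pair of fragments. The submitters' processing notes name Bowtie2 and mm10. The sources used here give no versions, settings or duplicate removal. Each deposited table has 4 numbered count columns. It has 1 further column with the authors' score in the layout of the CHiCAGO caller, given over the 4 count columns together. The headers do not say what a count column stands for, and taking each as 1 library is an assumption made here.

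Tables were joined by fragment numbers, with counts of 0 where a pair was listed in 1 table only. Pairs between baits stayed in the edgeR tests and were left out of the 793 and of shares. The partners of all 30386 pairs on the main chromosomes start at GATC in GRCm38. Genes and TSS came from the GENCODE annotation of that build, repeats from its soft-masking. Counts were tested with edgeR 4.0.16 (quasi-likelihood, TMM, 10 or more reads, Benjamini-Hochberg over all 3673 pairs or 292 sums), under R 4.3.3 with DESeq2 1.42.0 as the second test. There the adjusted p of 44 of the 793 pairs was NA. Shares were tested by exact permutation in scipy 1.17.1. The edgeR script was tested on simulated data.

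Named pairs were the most-read pair of each bait, the 5 with the lowest edgeR p, the 5 most even with 40 or more reads, pairs on fragments shared by baits, and pairs within 1 kb of a TSS of a list gene. The members and lists were chosen with earlier results of these data known. Alternatives covered normalization, test, filters, TSS window, gene type, score, pairs between baits and each library left out. Reads carry no molecular identifiers, so a count is not a number of molecules. 1 partner gene is not reported here.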

Additional observations from a re-analysis of the deposited data

Results flagged for a closer look

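In 56 groups of 4 libraries of the named pairs, 22 had 1 library far from the other 3 by Dixon's test at 95%, where chance would give 2.8. In 30 groups of shares by bait or gene class 0 did, where chance would give 1.5. Equal counts in the other 3 libraries make the test easy to pass, so that some far libraries differ by 1 read or a few. Most named pairs were also chosen by these same counts, as the most read, the lowest p or the most even. The 22 groups are therefore a description of the chosen pairs, and their excess over 2.8 is no test.

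High libraries of the most-read pairs were Esrrb with chromosome 19 at 97 reads (control-named library 3), Sox2 with chromosome 11 at 84 (control-named library 3) and Klf2 with chromosome 4 at 81 (control-named library 1). Sall4 with chromosome 13 reached 68 (control-named library 2), Nanog with chromosome 14 reached 63 (control-named library 4) and Stat3 with chromosome 4 reached 55 (IFNγ-named library 1). Lifr with chromosome 17 reached 51 (control-named library 4), while Klf4 with chromosome 14 and Phc1 with chromosome 19 each reached 47 (control-named library 3 and IFNγ-named library 2).

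Among the pairs with the lowest p, Esrrb with chromosome 5 had 85 reads in IFNγ-named library 2, Phc1 with chromosome 17 had 52 in IFNγ-named library 4 and Stat3 with chromosome 8 had 45 in control-named library 4. Sall4 with chromosome 7 had 34 in IFNγ-named library 1, the high library, and 2 in control-named library 1, the low one. Klf2 with chromosome 2 in Hsd17b12 had 7 in control-named library 2 and 1 in IFNγ-named library 2. On the shared fragment of chromosome 11, Dppa5a had 14 reads in IFNγ-named library 3 and Phc1 had 9 in control-named library 2.

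Low counts gave the rest. Klf2 with chromosome 2 in 8030442B05Rik stood at 5 in control-named library 2 and 6 in IFNγ-named library 4. Klf2 with chromosome 4 stood at 5 in IFNγ-named library 2, and Sox2 with the fragment next to the Klf2 bait at 1 in control-named library 4.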

How the results depend on the processing

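No paired analysis was possible because the count columns carry no mouse, passage or sample number. Of 333 alternative values over 34 results, 304 kept their direction and their side of the threshold (counts within 1.5 times). Shares compared between the tables with 1 library left out could not cross the threshold. Too few libraries then remain for the exact permutation p to go under it, even where the libraries do not overlap. For these values, here and below, only direction and size could change. With all libraries kept, 1 bait or gene class alone could not pass between the tables after adjustment either. Pairs of the baits outside Ciita with other chromosomes that differed between the tables numbered 0 under every normalization, test and left-out library. Without the filter on the total they numbered 19, all 19 among the 793. Only pairs of these baits with other chromosomes were counted. No share over all listed pairs is given, so the 19 cannot be set against a background. Bait by chromosome sums numbered 1 without that filter, and 0 to 1 over left-out libraries. The lower share against Ciita was -1.91 points with pairs between baits, -3.30 to -2.02 over left-out libraries, and -4.71 with pairs of 10 or more reads alone, a filter that kept 72.0% of the Ciita reads on other chromosomes and 63.4% of the others'. With a TSS window of 5 kb, 1 gene class differed from Ciita, against 0. Fragments joined to more than 1 bait numbered 8 from 5 reads up and 0 from 20 reads up, against 1. No direction that turned was past its threshold, and the cause was not tested: the share of Phc1 (-0.0137 points with pairs between baits, -2.54 to 3.51 over left-out libraries), of Sall4 (-0.10 with 10 or more reads alone, -1.20 to 4.71 over left-out libraries), of Stat3 (0.16 with 10 or more reads alone), of Klf4 (-6.77 to 0.26), Lifr (-4.27 to 0.23), Nanog (-7.76 to 0.91) and Tfcp2l1 (-4.04 to 1.74) over left-out libraries, and the TSS class between tables (1.38 with a 5 kb window, -0.732 to 0.0802 over left-out libraries). A median of 34 reads over 8 libraries limits single pairs, and an unchanged pair cannot be told from one with a moderate change.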
